A study of Mus musculus with 12 samples.

Results

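The transcripts described here are 31 genes of the p53 pathway, comprising Trp53 itself, 5 genes whose products restrain p53, and 25 genes known as p53 targets or as part of the death, arrest, repair and metabolic programmes that p53 controls. They were chosen by gene symbol from a list, by a rule that uses no measured value. The list was made with earlier results of these data known, so the shares called may not be independent of the data. All 31 are among the 15156 named genes of the count table and passed the filter on low counts. Cdkn1a, the best known p53 target, was left out of the list. The study asked which transcripts differ in mouse embryonic fibroblasts (MEFs) that lack p27, the product of Cdkn1b and an inhibitor of cyclin-dependent kinases. Every group carries the E6 protein of a human papillomavirus (HPV) as the immortalising agent, and there is no group without E6. The groups are p27 KO (genotype p27-/-, 1 line, 4 libraries), p27 WT clone2 (p27+/+, 4 libraries) and p27 WT clone1 (p27+/+, 4 libraries). The cells of all 12 libraries grew for 24 h in DMEM with 10% fetal bovine serum. The labels give neither the HPV type nor the age of the embryos.

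As background, p53 is a transcription factor that is kept scarce by the ubiquitin ligase Mdm2, which is itself a p53 target, so that the pair forms a feedback loop. DNA damage or oncogenic stress stabilises p53, which then switches on genes for growth arrest, apoptosis, DNA repair and metabolism. The E6 protein of the cancer-associated papillomaviruses binds p53 together with the cellular ubiquitin ligase E6-AP, encoded by Ube3a, and sends p53 to the proteasome. That step acts on the protein, and the libraries here measure RNA only.

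The 12 libraries held 15.4 to 24.0 M counts in named genes, and levels are given as CPM (counts per 1 M of these) with TMM scaling. Summed over 9 fibroblast markers found of 10 listed, levels were 18168 to 24074 CPM in KO libraries, 21922 to 29706 CPM in WT clone2 and 17148 to 23662 CPM in WT clone1. The epithelial markers Cdh1 and Krt14, found of 5 listed, summed to 0 in every KO library and to at most 1.49 CPM elsewhere. Of the 4 endothelial markers listed, 3 were found, and they summed to 0.516 to 2.19 CPM in KO libraries, 0.343 to 0.621 CPM in WT clone2 and 5.81 to 15.8 CPM in WT clone1. Of the WT clone1 sum Kdr made up 5.31 to 12.8 CPM, Tek 0.312 to 2.67 CPM and Pecam1 0.156 to 0.334 CPM. The experiment 1 libraries of KO and of WT clone1 stood apart from the other 10 on the third principal component (7.3% of the variance) and had 1.06% and 1.33% of their counts in mitochondrial genes, against 1.74 to 3.09% in the others. Cdkn1b RNA itself was at 83.7 to 118 CPM in KO libraries and at 86.8 to 120.0 CPM in WT libraries (log2 fold change 0.12 ± 0.11, edgeR adjusted p = 0.499), so its counts do not check the genotype label. There is 1 line of the KO genotype, so genotype and line cannot be told apart. Whether the experiments were separate cultures is not said in the labels, and each p-value then rests on a spread between libraries that could be technical. In bulk RNA, fewer cells of a type and less RNA per cell cannot be told apart.

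p53 binds DNA as a tetramer at a pair of 10-base half-sites. Promoters of 300 bases (250 before and 50 after the start site, from RefSeq for GRCm38.p6 and located here in GRCm39 by exact match) were found for 23 of the 31 genes. Of these, 3 held a pair of the p53 consensus decamer with at most 2 mismatches and a spacer of up to 13 bases, both strands searched and the fixed C and G of each core kept. The same search matched promoters of 4.71% of 27025 genes. Because 8 of the 31 genes have no entry in the promoter table, the share over the whole list is not known, and the shares were not tested. The list was drawn from known p53 pathway genes, and sequence outside the 300-base windows was not searched. The matches are in Ccng1, Bax and Ckap2, and a match is a description of the letters, not of binding. Ccng1 and Bax are shown whole, 5′ to 3′ on the gene's strand, because both were lower in WT clone2 than in either of the other lines. The capitals mark the decamers, which in Bax have 5 spacer bases in lower case between them.
Ccng1: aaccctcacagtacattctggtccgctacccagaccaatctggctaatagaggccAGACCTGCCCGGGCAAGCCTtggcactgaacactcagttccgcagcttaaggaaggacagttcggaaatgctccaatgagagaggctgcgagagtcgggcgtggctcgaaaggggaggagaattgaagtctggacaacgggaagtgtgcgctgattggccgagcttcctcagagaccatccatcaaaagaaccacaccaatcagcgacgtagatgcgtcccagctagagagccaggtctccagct
Bax: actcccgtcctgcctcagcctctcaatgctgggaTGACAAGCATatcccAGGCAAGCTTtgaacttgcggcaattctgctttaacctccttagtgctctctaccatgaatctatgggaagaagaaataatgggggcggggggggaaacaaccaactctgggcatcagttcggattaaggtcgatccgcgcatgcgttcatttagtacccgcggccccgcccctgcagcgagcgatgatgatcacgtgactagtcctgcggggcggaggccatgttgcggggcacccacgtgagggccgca
The Ccng1 window is chr11:40646064-40646363 on the minus strand, with a match of 1 mismatch and no spacer at chr11:40646289-40646308. The Bax window is chr7:45116273-45116572 on the minus strand, and its match has 2 mismatches at chr7:45116514-45116538. For Ckap2, which encodes a cytoskeleton-associated protein, the match alone is shown, at chr8:22676019-22676038 on the minus strand with 2 mismatches.
Ckap2: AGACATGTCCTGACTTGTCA
The start of the match lies 195 bases before the start site in Ccng1, 216 bases before it in Bax and 203 bases before it in Ckap2.

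Levels per kilobase were taken over the merged length of all annotated exons of a gene. On this scale Ccng1 (50.5 CPM per kb, mean of 12 libraries), Plk2 (49.6), Trp53 (33.2) and Phlda3 (32.7) ranked highest of the 31. Lowest were Gdf15 (1.30) and Ddb2 (0.485). Mdm2 stood at 9.97 CPM per kb and Mdm4 at 3.32 CPM per kb. The order depends on the length used. Merged exons of Trp53 span 7379 bases, and its canonical transcript 1850. For Ccng1 these lengths are 4399 and 3512 bases, and for Plk2 5116 and 3366. A ranking by canonical length was not made. Pseudogene copies with stretches of at least 150 bases at 95% identity or more exist for Trp53, Mdm4, Aen, Apaf1, Ckap2, Rrm2b and Tnfrsf10b, so the counts of these 7 genes are uncertain by the reads such copies share.

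Between KO and the 8 WT libraries pooled, the share of these genes called was near that of all genes tested. Of the 31 genes, 3 were higher in KO libraries (Bax, Apaf1 and Polk) and 4 were lower (Gdf15, Dram1, Tnfrsf10b and Perp), by edgeR's quasi-likelihood test with an adjusted p under 0.05 over 14392 genes. That is 7 of 31, where 18.8% of all genes tested were called, 8.47% higher and 10.3% lower. The median log2 fold change over the 31 was 0.07, against -0.03 over all genes tested. In 2 of them, Dram1 and Gdf15, all 4 KO libraries lay below all 8 WT libraries, and in none above. Over all genes 13.9% did not overlap, 7.30% below and 6.57% above. The 7 were also called in the authors' deposited table, which has 10 of the 31 under an adjusted p of 0.05. The others there were Fas, Rrm2b and Xpc, and 30.7% of all genes with a value in the authors' deposited table were under it. The count of 7 was 3 without KO experiment 2 (12.9% of all genes then called), and 4 without KO experiment 3 (13.6%) or KO experiment 4 (13.4%). With the line as a random block in limma-voom, of the 7 only Dram1 was called, and 1.60% of all genes were.

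More of these genes were called between the WT clones. Of the 31, 20 were lower and 2 (Mdm4 and Gdf15) higher in WT clone2 than in WT clone1, where 42.6% of all genes were called, 21.9% lower and 20.7% higher. The median log2 fold change was -0.47 over the 31 and 0.02 over all genes. Counted by sign alone, 28 of the 31 estimates were below 0. In 23 of the 31 the libraries of the clones did not overlap, with WT clone2 below in 21 and above in 2. Over all genes 40.8% did not overlap, 20.4% below and 20.5% above. Summed over the 31 genes, the level was 1281 to 1415 CPM in WT clone2 and 2141 to 2557 CPM in WT clone1. Abundant genes weigh most in this sum. Ccng1 averaged 97.4 CPM in WT clone2 and 339 CPM in WT clone1, and Plk2 128 and 383 CPM.

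The summed level in KO libraries, 1759 to 1940 CPM, lay between those of the clones. Set against WT clone1, 14 of the 31 were lower and 2 (Bax and Apaf1) higher in KO, where 36.1% of all genes were called, 19.3% lower and 16.8% higher. Set against WT clone2, 16 were higher and 3 (Gdf15, Dram1 and Tnfrsf10b) lower in KO, where 38.4% of all genes were called, 19.2% higher and 19.2% lower. Median log2 fold changes over the 31 were -0.31 against WT clone1 and 0.39 against WT clone2, beside -0.01 and -0.02 over all genes. KO libraries lay wholly below WT clone1 in 13 genes and wholly above it in none, where 33.3% of all genes did not overlap, 17.8% below and 15.4% above. They lay above WT clone2 in 15 and below it in 3, where 38.1% did not overlap, 18.4% above and 19.7% below. These comparisons share the KO libraries with each other and a WT clone with the comparison of the clones, so their values only stand side by side. By mean level, KO was the highest line for 11 of the 31, the middle one for 13 and the lowest for 7. WT clone1 was highest for 18, while WT clone2 was the lowest line for 22. Over all genes tested KO was highest for 30.2% and lowest for 32.7%, WT clone1 was highest for 33.3% and WT clone2 was lowest for 33.2%.

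**Figure D1:**
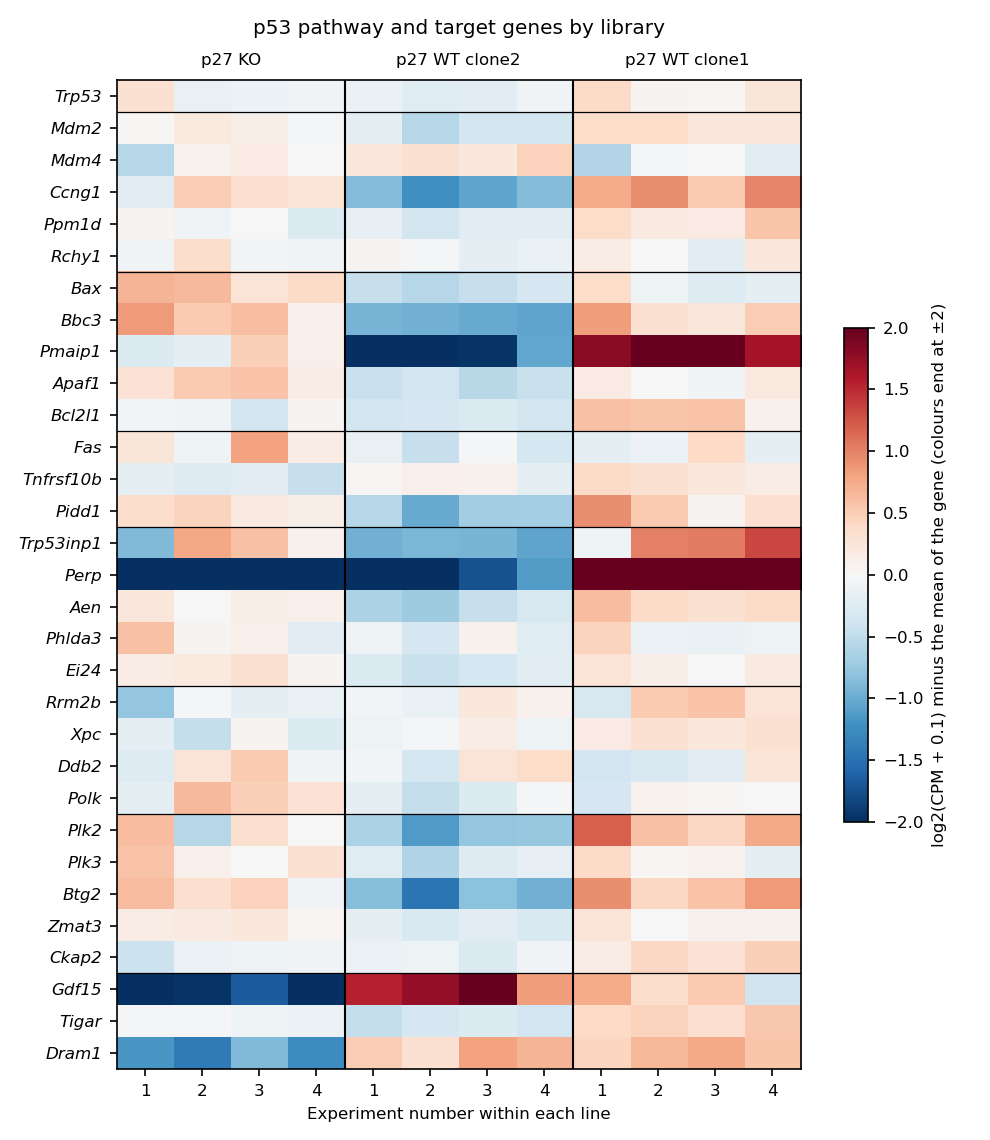
Level of each of the 31 genes in the 12 libraries, as log2(CPM + 0.1) minus the gene's mean over the libraries; columns are experiments 1 to 4 of p27 KO, p27 WT clone2 and p27 WT clone1, and horizontal lines part the functional groups in the order p53, its inhibitors, mitochondrial apoptosis, death receptors, other apoptosis targets, DNA repair, arrest, and secreted and metabolic targets. The WT clone2 block is blue for most rows, and the rows of Dram1 and Gdf15 are blue in the KO block.

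**Figure D2:**
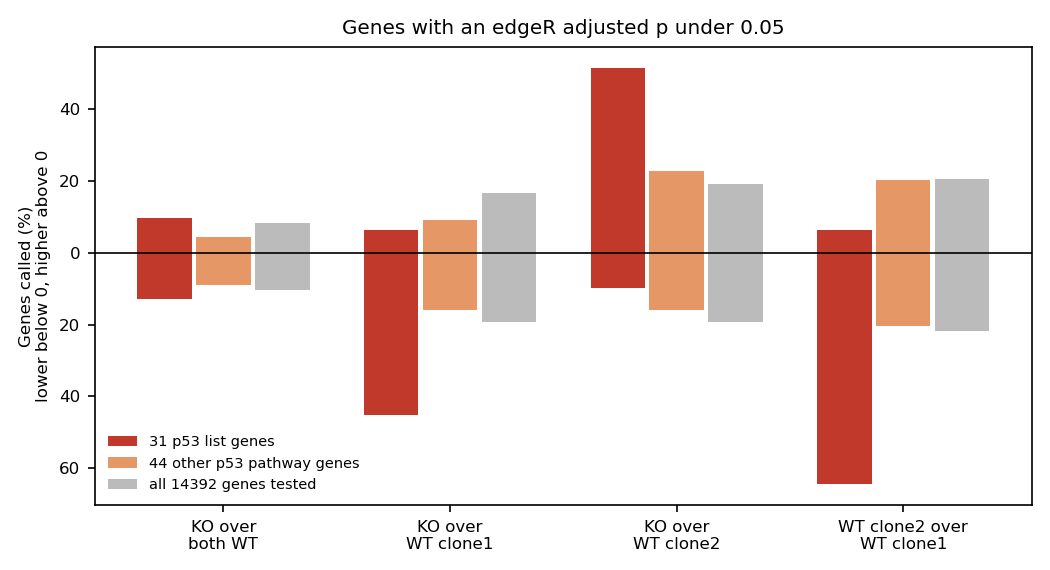
Share of genes called (edgeR adjusted p under 0.05) in each comparison, higher above 0 and lower below 0, for the 31 genes, 44 other p53 pathway genes and all 14392 genes tested. The largest share of the 31 is the one lower in WT clone2 than in WT clone1 (20 of 31).

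Trp53 RNA was called in 1 comparison, as lower in WT clone2 than in WT clone1. It was at 299, 219.9, 223 and 231 CPM in the 4 KO libraries, against 220.3, 206, 207 and 232 CPM in WT clone2 and 315, 253, 247 and 287 CPM in WT clone1. WT clone2 lay below every WT clone1 library, and the KO libraries overlapped both clones, with experiment 1 the highest of KO. The pooled log2 fold change of KO over WT was -0.02 ± 0.13 (edgeR adjusted p = 0.949). It was -0.18 ± 0.11 (edgeR adjusted p = 0.238) against WT clone1, and 0.17 ± 0.11 (edgeR adjusted p = 0.254) against WT clone2. For WT clone2 over WT clone1 the estimate was -0.35 ± 0.11 (edgeR adjusted p = 0.0221). That call was lost (edgeR adjusted p up to 0.0721) without WT clone1 experiment 1 or 4 or WT clone2 experiment 2 or 3. Against WT clone1, KO was called lower without KO experiment 1 (log2 fold change -0.29, edgeR adjusted p = 0.0271). A processed copy in the table, Trp53-ps, shares at least 95% of its bases with Trp53 over 899 bases and held 24 to 59 counts per library.

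Among the 5 genes whose products restrain p53, none was called in the pooled comparison by edgeR, none by DESeq2, and none had an unadjusted p under 0.05, which 31.6% of all genes had. Mdm2, the ubiquitin ligase that marks p53 for degradation, was at 76.2, 85.9, 82.1 and 74.3 CPM in KO, against 65.7, 50.9, 58.7 and 58.3 CPM in WT clone2 and 97.5, 97.4, 87.9 and 87.9 CPM in WT clone1. The lines did not overlap, KO lying between the clones. Its log2 fold change was 0.45 ± 0.09 (edgeR adjusted p = 0.00142) for KO over WT clone2 and -0.67 ± 0.09 (edgeR adjusted p = 5.0e-05) for WT clone2 over WT clone1, while KO over WT clone1, at -0.22 ± 0.09 (edgeR adjusted p = 0.0727), did not pass. Ccng1, which encodes cyclin G1, a partner of protein phosphatase 2A in the Mdm2 loop, was at 166, 274, 244 and 235 CPM in KO, against 107, 82.9, 93.2 and 107 CPM in WT clone2 and 324, 369.7, 280.2 and 383 CPM in WT clone1. Again no library of one line overlapped another line's. Ccng1 was called in each comparison of lines. Its log2 fold change was -0.56 ± 0.15 (edgeR adjusted p = 0.00956) for KO over WT clone1, 1.24 ± 0.15 (edgeR adjusted p = 2.6e-05) for KO over WT clone2 and -1.80 ± 0.15 (edgeR adjusted p = 8.8e-07) for WT clone2 over WT clone1. The pooled estimate was 0.07 ± 0.44 (edgeR adjusted p = 0.93).

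Mdm4, a relative of Mdm2 that masks the activation domain of p53, ran the other way. It was at 44.5, 69.3, 74.1 and 66.3 CPM in KO, against 77.8, 82.3, 76.4 and 91.5 CPM in WT clone2 and 43.97, 64.7, 65.8 and 56.7 CPM in WT clone1, and every WT clone2 library was above every library of the other lines. The log2 fold change of WT clone2 over WT clone1 was 0.51 ± 0.16 (edgeR adjusted p = 0.0189), and that of KO over WT clone2 was -0.37 ± 0.16 (edgeR adjusted p = 0.0803). The first of these was lost without WT clone2 experiment 4 (edgeR adjusted p = 0.0517), and the other was called without WT clone1 experiment 1 (edgeR adjusted p = 0.0444). The lowest Mdm4 levels of KO and WT clone1 were in the experiment 1 libraries that stood apart. Ppm1d, the phosphatase Wip1 that switches off p53 signalling, was lower in KO than in WT clone1 (-0.39 ± 0.11, edgeR adjusted p = 0.0149, as log2 fold change) and lower in WT clone2 than in WT clone1 (-0.56 ± 0.11, edgeR adjusted p = 0.00118). The KO call was lost without KO experiment 4 or WT clone1 experiment 4 (edgeR adjusted p up to 0.0615). Rchy1, another ubiquitin ligase of p53, ranged over 24.7 to 33.4 CPM in KO, 22.7 to 26.9 CPM in WT clone2 and 22.4 to 30.3 CPM in WT clone1, with no call in any comparison. Of its exon bases, 18.3% are shared with Thap6 on the opposite strand. Since the strand setting of the counting is not given in the sources used here, reads of such pairs cannot be told apart.

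All 5 genes of mitochondrial apoptosis (Bax, Bbc3, Pmaip1, Apaf1 and Bcl2l1) were lower in WT clone2 than in WT clone1, where 21.9% of all genes were, and 4 of the 5 were higher in KO than in WT clone2, where 19.2% were. Bax, which forms pores in the outer mitochondrial membrane, was at 46.8, 45.6, 35.3 and 38.0 CPM in KO, against 21.3, 19.6, 21.3 and 23.2 CPM in WT clone2 and 37.7, 27.3, 24.5 and 25.9 CPM in WT clone1. Only the experiment 1 library of WT clone1 reached into the KO range. Bax was higher in KO in the pooled comparison (0.72 ± 0.16, edgeR adjusted p = 0.00667, as log2 fold change), over WT clone1 (0.52 ± 0.14, edgeR adjusted p = 0.00902) and over WT clone2 (0.96 ± 0.14, edgeR adjusted p = 0.000111). Its difference between the clones, -0.43 ± 0.14 (edgeR adjusted p = 0.0219), was lost without WT clone1 experiment 1 or WT clone2 experiment 2 (edgeR adjusted p up to 0.0703). Bax shares 10.3% of its exon bases with the gene model Gm45808 on the same strand.

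Apaf1, the scaffold of the apoptosome that activates caspases, followed a similar order. It was at 77.9, 92.2, 94.8 and 71.3 CPM in KO, against 46.9, 49.1, 43.7 and 47.2 CPM in WT clone2 and 71.9, 63.8, 61.2 and 73.5 CPM in WT clone1. KO was above all of WT clone2 and overlapped WT clone1 through experiment 4 alone. Log2 fold changes of KO were 0.56 ± 0.15 (edgeR adjusted p = 0.0247) over pooled WT, 0.31 ± 0.10 (edgeR adjusted p = 0.0272) over WT clone1 and 0.85 ± 0.10 (edgeR adjusted p = 2.3e-05) over WT clone2. The pooled call was lost without KO experiment 2 or 3 (edgeR adjusted p up to 0.0838), and the call against WT clone1 without any 1 of KO experiments 2 and 3 and WT clone1 experiments 2 and 3 (edgeR adjusted p up to 0.0859). The clones differed by -0.53 ± 0.10 (edgeR adjusted p = 0.000877), as log2 fold change of WT clone2 over WT clone1.

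The BH3-only genes Bbc3 (PUMA) and Pmaip1 (Noxa), whose proteins free or activate Bax and its relative Bak, were scarce in WT clone2. Bbc3 was at 11.7, 9.23, 9.82 and 6.87 CPM in KO, against 3.32, 3.26, 3.15 and 3.05 CPM in WT clone2 and 11.6, 7.95, 7.54 and 9.19 CPM in WT clone1. KO and WT clone1 overlapped and WT clone2 lay below both. Bbc3 differed on the log2 scale by 1.55 ± 0.18 (edgeR adjusted p = 1.7e-05) for KO over WT clone2 and by -1.50 ± 0.18 (edgeR adjusted p = 1.9e-05) for WT clone2 over WT clone1, but by 0.05 ± 0.17 (edgeR adjusted p = 0.844) for KO over WT clone1. The pooled value was 0.62 ± 0.38 (edgeR adjusted p = 0.292). Pmaip1 had 5.91, 6.27, 10.0 and 7.67 CPM in KO, against 1.24, 1.03, 1.77 and 3.44 CPM in WT clone2 and 25.2, 38.5, 31.7 and 23.0 CPM in WT clone1. The lines were fully apart, in the order WT clone2, KO, WT clone1. The estimate of -3.998 ± 0.32 (edgeR adjusted p = 4.5e-07), as log2 fold change, for WT clone2 over WT clone1 was, after Perp, the widest difference among the 31 genes in that comparison. KO stood at -1.99 ± 0.28 (edgeR adjusted p = 9.4e-05) relative to WT clone1 and at 2.01 ± 0.32 (edgeR adjusted p = 0.000254) relative to WT clone2, and the pooled value was -1.07 ± 0.94 (edgeR adjusted p = 0.474).

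Bcl2l1, whose main product Bcl-xL protects mitochondria and so opposes Bax, was at 83.1, 81.6, 65.9 and 89.4 CPM in KO, against 67.0, 68.6, 70.6 and 67.1 CPM in WT clone2 and 129.9, 127, 128 and 91.1 CPM in WT clone1. WT clone1 lay above both other lines, although its experiment 4 library was far below its other 3. Relative to WT clone1, the log2 fold change was -0.57 ± 0.12 (edgeR adjusted p = 0.00198) in KO and -0.80 ± 0.12 (edgeR adjusted p = 0.00012) in WT clone2. Genes for activators of apoptosis and for this inhibitor were thus both lower in WT clone2 than in WT clone1.

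**Figure D3:**
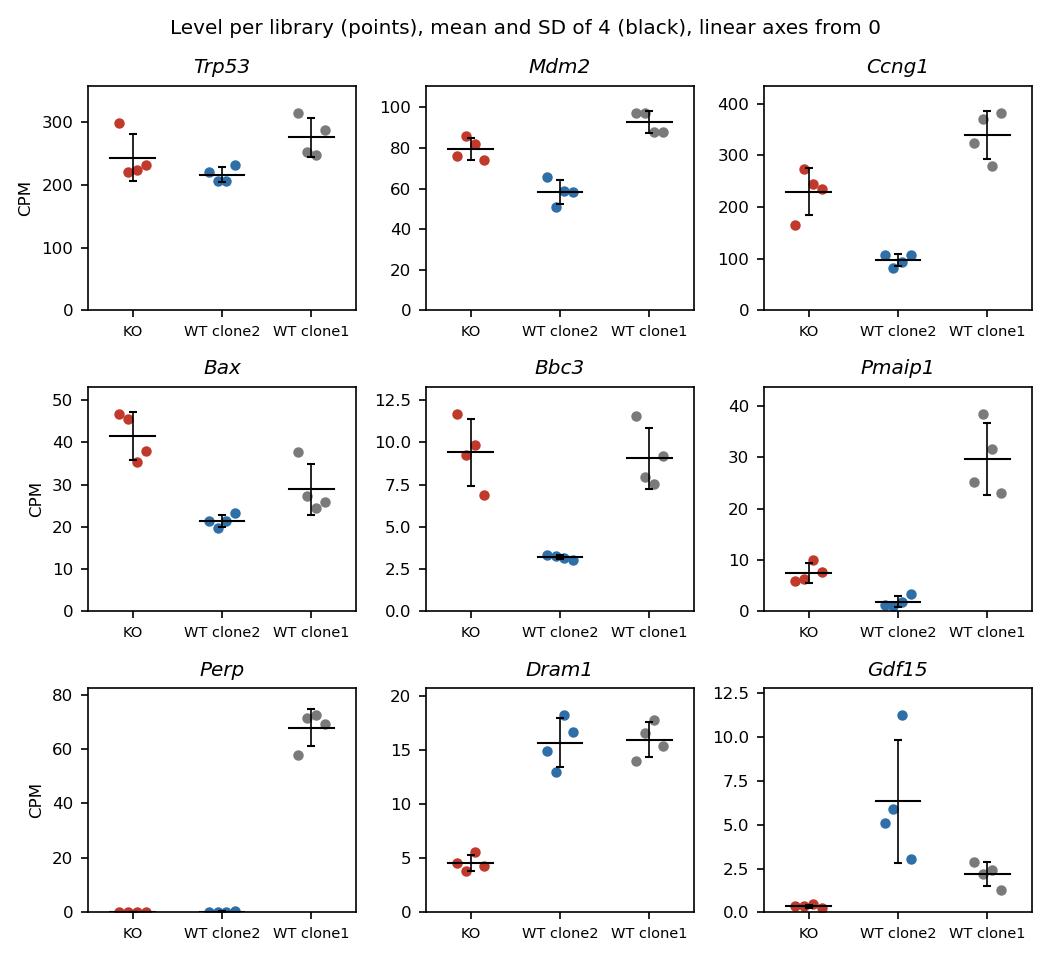
Level in CPM of 9 of the 31 genes in each library of p27 KO, p27 WT clone2 and p27 WT clone1 (points), with the mean and SD of 4 libraries (black); each linear axis starts at 0. Ccng1 and Pmaip1 have 3 separate levels, Perp is near 0 in KO and WT clone2, Dram1 is low in KO, and Trp53 overlaps between KO and both clones.

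Of the 3 genes for death receptors and a caspase platform, Tnfrsf10b alone was called in the pooled comparison, where 18.8% of all genes were. Tnfrsf10b, the mouse receptor for the death ligand TRAIL, was at 69.0, 65.4, 67.8 and 57.1 CPM in KO, against 79.8, 83.8, 83.4 and 69.0 CPM in WT clone2 and 102, 97.1, 91.5 and 86.4 CPM in WT clone1. The highest KO library, at 69.0 CPM, reached the lowest of WT clone2, and all KO libraries were below WT clone1. It was lower in KO in the pooled comparison (-0.42 ± 0.10, edgeR adjusted p = 0.0136, as log2 fold change), against WT clone1 (-0.54 ± 0.09, edgeR adjusted p = 0.000444) and against WT clone2 (-0.29 ± 0.09, edgeR adjusted p = 0.025). Without KO experiment 2 or 4 the pooled call was lost (edgeR adjusted p up to 0.0756), and so was the call against WT clone2, which also went without WT clone2 experiment 1, 2 or 3 (edgeR adjusted p up to 0.122). The log2 fold change of WT clone2 over WT clone1 was -0.26 ± 0.09 (edgeR adjusted p = 0.0374), a call lost without WT clone1 experiment 1, 2 or 3 or WT clone2 experiment 1 or 4 (edgeR adjusted p up to 0.106). Fas, the receptor for Fas ligand, had 3.85 to 7.20 CPM in KO, 2.91 to 3.98 CPM in WT clone2 and 3.54 to 5.37 CPM in WT clone1, and it was called in no comparison. The log2 fold change of KO over WT clone2 was 0.56 ± 0.21 (edgeR adjusted p = 0.0513), just short of the threshold. It passed by DESeq2 (adjusted p = 0.0368), in edgeR with DESeq2 size factors, with no filter on low counts or with a block for experiment number (edgeR adjusted p down to 0.00941), and without KO experiment 2 or 4 or WT clone1 experiment 1 or 3. Pidd1, a scaffold for caspase activation, was at 9.18, 9.88, 8.12 and 7.85 CPM in KO, against 4.81, 3.54, 4.42 and 4.46 CPM in WT clone2 and 13.7, 10.3, 7.49 and 9.12 CPM in WT clone1. Only WT clone2 stood clear, with 1.02 ± 0.18 (edgeR adjusted p = 0.000587) for KO over WT clone2 and -1.24 ± 0.18 (edgeR adjusted p = 0.0001) for WT clone2 over WT clone1 (log2 fold changes).

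Perp, a membrane protein of desmosomes that is a p53 target in apoptosis (chromosome 10, 18720715 to 18732821), was present in WT clone1 and close to absent elsewhere. It had 1, 1, 1 and 1 counts in the KO libraries, 0, 2, 6 and 10 counts in WT clone2, and 1114, 1286, 1368 and 1109 counts in WT clone1. In CPM that is 0.0574 to 0.0655 in KO, 0 to 0.564 in WT clone2 and 58.0 to 72.7 in WT clone1, so the KO range lies inside that of WT clone2. Summed over libraries, KO held 0.0883% of the WT clone1 level (95% exact interval 0.0240 to 0.226%, counting error only) and WT clone2 0.343% of it (0.203 to 0.543%). KO held 25.7% of the WT clone2 level (6.33 to 78.0%), and the estimate, at -1.86 ± 0.86 (edgeR adjusted p = 0.109), did not pass, although it did by DESeq2 and without WT clone2 experiment 1. The pooled estimate of -8.996 ± 2.63 (edgeR adjusted p = 0.0314) therefore compares 4 KO libraries with a WT group in which 1 clone holds nearly every read, and the call was lost when any of the 4 KO libraries was left out (edgeR adjusted p up to 0.0867). Cdh1 was at 0.0520 to 0.531 CPM in WT clone1, and Krt14 at no more than 0.0531 CPM. The endothelial marker sum was higher in WT clone1 as Perp was, mostly through Kdr (5.31 to 12.8 CPM), while Pecam1 was at 0.156 to 0.334 CPM there. Any link between these markers and the Perp level was not tested.

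Of the other 4 apoptosis targets, Trp53inp1, Aen and Ei24 were lower in WT clone2 than in WT clone1, and Phlda3 was not called. Of all genes, 21.9% were lower there. Trp53inp1, a nuclear cofactor that promotes p53 phosphorylation, was at 6.37, 20.2, 17.7 and 12.5 CPM in KO, against 5.97, 6.17, 6.14 and 5.64 CPM in WT clone2 and 11.1, 23.7, 24.3 and 29.9 CPM in WT clone1. The experiment 1 library was the lowest of KO and of WT clone1, and WT clone2 was below every other library. Log2 fold changes were 1.24 ± 0.33 (edgeR adjusted p = 0.0096) for KO over WT clone2 and -1.89 ± 0.33 (edgeR adjusted p = 0.000453) for WT clone2 over WT clone1. KO over WT clone1, at -0.65 ± 0.32 (edgeR adjusted p = 0.129), was called without WT clone1 experiment 1 (edgeR adjusted p = 0.0196). Aen, an exonuclease that takes part in DNA fragmentation, was at 65.0, 55.7, 60.5 and 59.8 CPM in KO, against 35.8, 33.8, 40.3 and 44.4 CPM in WT clone2 and 85.4, 72.8, 68.6 and 72.9 CPM in WT clone1. No lines overlapped, and all 3 comparisons of lines were called. They had log2 fold changes of -0.31 ± 0.10 (edgeR adjusted p = 0.0258) for KO over WT clone1, 0.64 ± 0.10 (edgeR adjusted p = 0.000228) for KO over WT clone2 and -0.96 ± 0.10 (edgeR adjusted p = 6.2e-06) for WT clone2 over WT clone1. The first of these was lost without KO experiment 2, 3 or 4 or WT clone1 experiment 1 (edgeR adjusted p up to 0.0944). Of the exon bases of Aen, 10.7% are shared with the opposite-strand model Gm73250. Ei24, a protein of the endoplasmic reticulum, was at 86.7 to 104 CPM in KO, 61.7 to 72.0 CPM in WT clone2 and 83.0 to 102 CPM in WT clone1, with WT clone2 below both. Its log2 fold change was 0.50 ± 0.09 (edgeR adjusted p = 0.000502) for KO over WT clone2 and -0.47 ± 0.09 (edgeR adjusted p = 0.000681) for WT clone2 over WT clone1. Phlda3, which competes with Akt for membrane lipids, spanned 70.7 to 125 CPM in KO, 65.7 to 87.8 CPM in WT clone2 and 75.7 to 113 CPM in WT clone1, and was not called in any comparison.

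Of the 5 genes of arrest and growth control, 4 were lower in WT clone2 than in WT clone1 (Plk2, Btg2, Zmat3 and Ckap2), where 21.9% of all genes were. In KO, 4 were higher than in WT clone2 (Plk2, Plk3, Btg2 and Zmat3), where 19.2% of all genes were. Btg2, an antiproliferative cofactor of mRNA deadenylation, was at 18.1, 14.8, 16.2 and 11.2 CPM in KO, against 6.51, 4.23, 6.64 and 5.98 CPM in WT clone2 and 22.5, 15.7, 17.6 and 21.3 CPM in WT clone1. WT clone2 lay below all other libraries, and KO and WT clone1 overlapped. An opposite-strand model, Gm31974, shares 14.3% of the exon bases of Btg2. The log2 fold change was 1.36 ± 0.18 (edgeR adjusted p = 5.6e-05) for KO over WT clone2, -1.72 ± 0.18 (edgeR adjusted p = 6.1e-06) for WT clone2 over WT clone1 and -0.36 ± 0.17 (edgeR adjusted p = 0.128) for KO over WT clone1. Plk2, a polo-like kinase induced by stress, was at 343, 152, 281 and 225 CPM in KO, against 145, 102, 131 and 133 CPM in WT clone2 and 515, 338, 298 and 380.4 CPM in WT clone1. Spread within a line was wide for Plk2, with the highest library in experiment 1 of each line. It differed by 0.97 ± 0.23 (edgeR adjusted p = 0.00398) for KO over WT clone2 and by -1.58 ± 0.23 (edgeR adjusted p = 9.0e-05) for WT clone2 over WT clone1. The estimate for KO over WT clone1, -0.61 ± 0.22 (edgeR adjusted p = 0.0462), was called but was lost in 10 of the 12 fits that left out 1 library (edgeR adjusted p up to 0.143), all but those without KO experiment 1 or WT clone1 experiment 3.

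Plk3, a related kinase, had 19.4 to 28.9 CPM in KO, 12.7 to 17.3 CPM in WT clone2 and 16.8 to 25.3 CPM in WT clone1. It was higher in KO than in WT clone2 (0.57 ± 0.15, edgeR adjusted p = 0.00974, as log2 fold change). WT clone2 over WT clone1, at -0.39 ± 0.15 (edgeR adjusted p = 0.0546), was called only without KO experiment 1 or WT clone1 experiment 4 among the fits that left out a library. It was also called with a block for experiment number (edgeR adjusted p = 0.0189) and by DESeq2 (adjusted p = 0.0493). Zmat3, a zinc-finger protein that binds RNA, was at 173 to 195 CPM in KO, 136 to 149 CPM in WT clone2 and 168 to 203 CPM in WT clone1. Its difference was small but the libraries of WT clone2 stood clear, with 0.39 ± 0.08 (edgeR adjusted p = 0.00138) for KO over WT clone2 and -0.36 ± 0.08 (edgeR adjusted p = 0.00208) for WT clone2 over WT clone1. Ckap2, a microtubule-associated protein of dividing cells, was at 65.0 to 83.2 CPM in KO, 71.6 to 83.6 CPM in WT clone2 and 97.8 to 122 CPM in WT clone1. Here WT clone1 stood above both other lines, with log2 fold changes of -0.51 ± 0.10 (edgeR adjusted p = 0.00122) for KO over WT clone1 and -0.48 ± 0.10 (edgeR adjusted p = 0.00152) for WT clone2 over WT clone1.

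Of the 4 DNA repair genes, 1 was higher in KO in the pooled comparison (Polk), where 8.47% of all genes were. Lower in KO than in WT clone1 were 2 (Xpc and Rrm2b), where 19.3% of all genes were. Polk, a translesion DNA polymerase, was at 24.0, 42.7, 38.0 and 33.4 CPM in KO, against 23.7, 19.5, 22.5 and 26.4 CPM in WT clone2 and 21.4, 28.6, 27.6 and 27.4 CPM in WT clone1. KO libraries were the highest apart from experiment 1, which lay within both WT ranges. The log2 fold change was 0.49 ± 0.15 (edgeR adjusted p = 0.0369) over pooled WT and 0.58 ± 0.16 (edgeR adjusted p = 0.0113) over WT clone2, with 0.39 ± 0.16 (edgeR adjusted p = 0.0728) over WT clone1. Without KO experiment 1 the last of these was called (log2 fold change 0.53, edgeR adjusted p = 0.00615). The pooled call was lost without KO experiment 2, 3 or 4, WT clone1 experiment 1 or WT clone2 experiment 1, 2 or 3 (edgeR adjusted p up to 0.126). Xpc, the sensor of distorted DNA in nucleotide excision repair, had 9.47 to 13.7 CPM in KO, 12.4 to 14.7 CPM in WT clone2 and 14.8 to 16.4 CPM in WT clone1, and was lower in KO than in WT clone1 (-0.46 ± 0.12, edgeR adjusted p = 0.00714, as log2 fold change). WT clone2 over WT clone1, at -0.27 ± 0.12 (edgeR adjusted p = 0.0774), was called without KO experiment 2 or WT clone2 experiment 3. Rrm2b, a ribonucleotide reductase subunit that supplies nucleotides for repair, had 7.69 to 12.8 CPM in KO, 11.99 to 15.2 CPM in WT clone2 and 10.5 to 19.5 CPM in WT clone1, and was lower in KO than in WT clone1 (-0.56 ± 0.20, edgeR adjusted p = 0.0384). That call was lost without KO experiment 1, 3 or 4 or WT clone1 experiment 2, 3 or 4 (edgeR adjusted p up to 0.115). WT clone2 over WT clone1, at -0.27 ± 0.19 (edgeR adjusted p = 0.287), was called without WT clone1 experiment 1. Ddb2, which recognises ultraviolet damage, was the least abundant per kilobase at 1.72 to 3.01 CPM in KO, 1.60 to 2.71 CPM in WT clone2 and 1.56 to 2.4996 CPM in WT clone1, with no call. In Ddb2, 37.0% of the exon bases lie in Acp2 on the opposite strand.

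Of the 3 secreted, metabolic and autophagy targets, Dram1 and Gdf15 were lower in KO than in either clone, and Tigar lay between the clones. Of all genes, 19.3% were lower in KO than in WT clone1 and 19.2% lower than in WT clone2. Dram1, a lysosomal membrane protein that promotes autophagy (chromosome 10, 88158665 to 88214942), was at 4.59, 3.85, 5.63 and 4.33 CPM in KO, against 14.9, 12.96, 18.3 and 16.7 CPM in WT clone2 and 14.1, 16.6, 17.8 and 15.4 CPM in WT clone1. Every KO library lay below every WT library, and the clones overlapped. On the log2 scale, KO differed by -1.78 ± 0.14 (edgeR adjusted p = 3.5e-06) from pooled WT, by -1.80 ± 0.15 (edgeR adjusted p = 7.9e-07) from WT clone1 and by -1.77 ± 0.15 (edgeR adjusted p = 7.5e-07) from WT clone2. Between the clones the estimate was -0.02 ± 0.14 (edgeR adjusted p = 0.903). Dram1 was called in the pooled comparison under each of the 19 alternatives run, with adjusted p up to 0.0114, that of limma-voom.

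Gdf15, a secreted stress hormone of the TGF-beta family (chromosome 8, 71082038 to 71091537), was at 0.344, 0.355, 0.458 and 0.231 CPM in KO, against 5.10, 5.88, 11.3 and 3.05 CPM in WT clone2 and 2.86, 2.17, 2.44 and 1.25 CPM in WT clone1. In counts these are 6, 6, 7 and 4 in KO, 123, 103, 204 and 54 in WT clone2 and 55, 39, 46 and 20 in WT clone1. All 3 lines were apart, KO lowest and WT clone2 highest, and experiment 4 was the lowest library of each line. The log2 fold change was -3.60 ± 0.62 (edgeR adjusted p = 0.0015) over pooled WT, -2.65 ± 0.48 (edgeR adjusted p = 0.000765) over WT clone1, -4.17 ± 0.45 (edgeR adjusted p = 8.7e-06) over WT clone2 and 1.52 ± 0.35 (edgeR adjusted p = 0.00322) for WT clone2 over WT clone1. It and Mdm4 were the genes of the 31 that were higher in WT clone2 than in WT clone1. An antisense model, Gm34154, shares 17.3% of its exon bases.

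Tigar, a phosphatase that lowers the flux through glycolysis, was at 24.3, 24.6, 23.7 and 23.2 CPM in KO, against 18.1, 19.8, 20.8 and 19.3 CPM in WT clone2 and 33.3, 34.3, 31.2 and 36.6 CPM in WT clone1. The lines did not overlap, in the order WT clone2, KO, WT clone1, and the spread within KO was the smallest of the 31 genes there (coefficient of variation 2.64%). Its log2 fold change was -0.50 ± 0.08 (edgeR adjusted p = 0.000273) for KO over WT clone1, 0.30 ± 0.08 (edgeR adjusted p = 0.00974) for KO over WT clone2 and -0.80 ± 0.08 (edgeR adjusted p = 3.7e-06) for WT clone2 over WT clone1. The KO differences had opposite signs, and the pooled value was -0.15 ± 0.21 (edgeR adjusted p = 0.654).

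**Figure D4:**
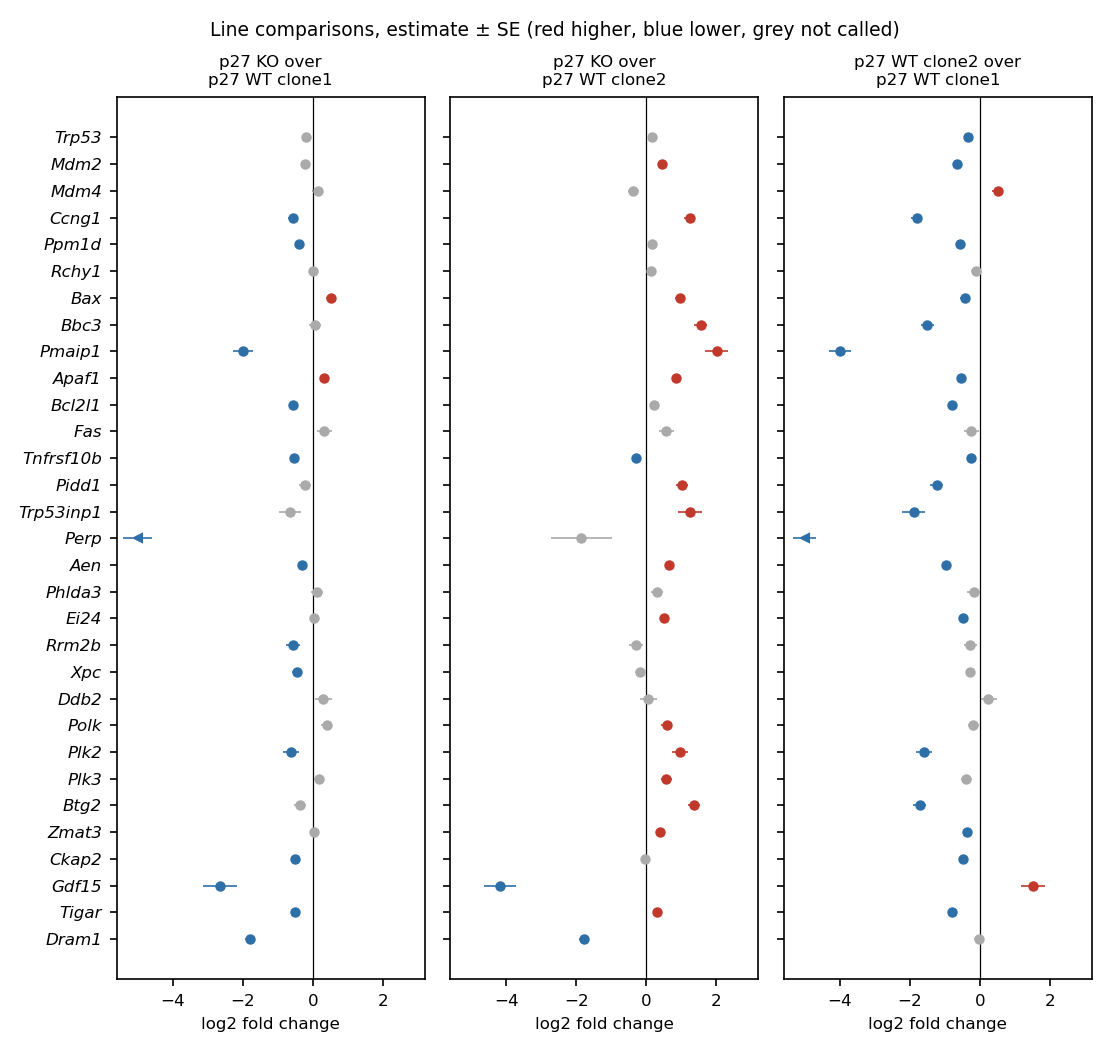
Log2 fold change with its SE for the 31 genes in the comparisons of p27 KO over p27 WT clone1, p27 KO over p27 WT clone2 and p27 WT clone2 over p27 WT clone1; red is higher and blue lower at an edgeR adjusted p under 0.05, grey not called, and arrows at the left edge stand for Perp values below -5. Blue points fill the panel of the clones (20 of 31), and red points the panel of KO over WT clone2 (16 of 31).

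A further 46 p53 pathway genes, upstream kinases, modifiers and other targets, were listed apart, and 44 of them are in the table. Trp63 and Trp73 are not in it, so no values are given for them. Of the 44, 2 were higher and 4 lower in KO than in pooled WT, beside 8.47% and 10.3% of all genes, with a median log2 fold change of -0.03. Between WT clone2 and WT clone1, 9 were higher and 9 lower, beside 20.7% and 21.9% of all genes, with a median of -0.04. Against WT clone1, 4 were higher and 7 lower in KO (median 0.01), beside 16.8% and 19.3% of all genes. Against WT clone2, 10 were higher and 7 lower in KO (median -0.03), beside 19.2% of all genes in each direction.

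In the pooled comparison the genes higher in KO were Ddit4, an inhibitor of mTORC1 signalling (1.39 ± 0.20, edgeR adjusted p = 0.000358, as log2 fold change), and Sesn2, a stress-induced sestrin (0.65 ± 0.20, edgeR adjusted p = 0.0347). Lower in KO were Steap3, a metalloreductase of iron uptake (-1.60 ± 0.21, edgeR adjusted p = 0.000233), Cd82, a tetraspanin (-1.80 ± 0.30, edgeR adjusted p = 0.00108), Trp53bp2, which binds p53 and favours apoptotic targets (-0.49 ± 0.09, edgeR adjusted p = 0.00305), and Cop1, a ubiquitin ligase (-0.32 ± 0.09, edgeR adjusted p = 0.0229). Steap3 was at 22.8, 36.2, 18.4 and 20.4 CPM in KO, against 72.0, 109, 81.2 and 72.7 CPM in WT clone2 and 60.2, 64.4, 75.1 and 56.8 CPM in WT clone1, with every KO library below every WT library. Cd82 was at 6.08, 3.61, 5.57 and 4.04 CPM in KO, against 21.7, 25.5, 22.9 and 17.9 CPM in WT clone2 and 11.8, 10.5, 10.9 and 12.998 CPM in WT clone1, and its 3 lines were apart. With 1 library left out, the call of Sesn2 was lost in 7 of 12 fits (edgeR adjusted p up to 0.138) and that of Cop1 in the 3 without KO experiment 1, 2 or 4 (up to 0.0825).

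Against WT clone1, genes higher in KO included Bid, which links death receptors to Bax (0.60 ± 0.09, edgeR adjusted p = 0.00016), Ak1, an adenylate kinase (0.55 ± 0.13, edgeR adjusted p = 0.00434), and Usp7, which removes ubiquitin from p53 and Mdm2 (0.27 ± 0.08, edgeR adjusted p = 0.0129). Against WT clone2, KO was higher for Eda2r, a TNF receptor family member (1.52 ± 0.18, edgeR adjusted p = 2.2e-05), and Ppp1r13l, an inhibitor of p53 (0.95 ± 0.15, edgeR adjusted p = 0.000217). Between the clones, WT clone2 was lower for Eda2r (-1.67 ± 0.18, edgeR adjusted p = 8.1e-06), Siah1a, a ubiquitin ligase (-0.66 ± 0.09, edgeR adjusted p = 5.4e-05), and Ppp1r13l (-0.69 ± 0.15, edgeR adjusted p = 0.002). It was higher for Usp7 (0.49 ± 0.08, edgeR adjusted p = 0.000155), Bid (0.55 ± 0.09, edgeR adjusted p = 0.000247), Cd82 (0.93 ± 0.16, edgeR adjusted p = 0.00035) and Ak1 (0.67 ± 0.13, edgeR adjusted p = 0.000868). All of these are log2 fold changes with SE.

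Ube3a, the ligase that E6 recruits to p53, was at 24.2, 81.1, 75.4 and 94.98 CPM in KO, against 72.3, 75.8, 70.2 and 91.7 CPM in WT clone2 and 74.9, 176, 168 and 174 CPM in WT clone1. The experiment 1 libraries of KO and WT clone1, which stood apart, had the lowest level of their line, and WT clone1 was otherwise above both other lines. Its log2 fold change was -0.71 ± 0.39 (edgeR adjusted p = 0.236) over pooled WT, -1.10 ± 0.34 (edgeR adjusted p = 0.0228) for KO over WT clone1 and -0.94 ± 0.34 (edgeR adjusted p = 0.0411) for WT clone2 over WT clone1. The KO call against WT clone1 was lost without WT clone1 experiment 2, 3 or 4 (edgeR adjusted p up to 0.0596), and the call between the clones in 7 of 12 fits (up to 0.0969). Without the experiment 1 libraries of KO and WT clone1, the log2 fold changes were -1.05 for KO over WT clone1 and -1.15 for WT clone2 over WT clone1. Atm, a kinase that activates p53 after DNA breaks, was low in the same libraries, at 25.01, 87.6, 80.0 and 91.2 CPM in KO, against 65.6, 81.3, 72.3 and 82.3 CPM in WT clone2 and 40.2, 109, 103 and 98.5 CPM in WT clone1, and was not called with all libraries. Without the experiment 1 libraries of KO and WT clone1, it was lower in KO than in WT clone1 (log2 fold change -0.28, edgeR adjusted p = 0.0361) and lower in WT clone2 than in WT clone1 (-0.45, edgeR adjusted p = 0.00103). Chek2, another such kinase, was also not called, nor were Gadd45a and Sesn1, textbook p53 targets, in any comparison. With a block for experiment number, Gadd45a was lower in WT clone2 than in WT clone1 (log2 fold change -0.43, edgeR adjusted p = 0.0379), and it was so without WT clone2 experiment 3 (edgeR adjusted p = 0.00501). The pooled log2 fold changes were 0.04 ± 0.12 (edgeR adjusted p = 0.839) for Chek2, -0.08 ± 0.20 (edgeR adjusted p = 0.833) for Gadd45a and 0.02 ± 0.13 (edgeR adjusted p = 0.937) for Sesn1.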

How the data were processed

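RNA from 12 bulk libraries of 3 lines (p27 KO, p27 WT clone2, p27 WT clone1, 4 each, grouped by title) was measured. The deposited table holds raw read counts, which the authors made with STAR 2.5.4a on GRCm39 and GENCODE genes after FastQC, per the submitters' processing notes. Which GENCODE release, strand setting and gene filter they used is not given in the sources used here. Per gene, the authors' deposited table also holds a log2 fold change and an adjusted p-value. No source names its tool, and its direction, read from the signs, is KO over WT. Another 24 per-library columns (the authors' CPM and log2 CPM) were not used. Of 15207 entries, 51 have no identifier (2.04 to 5.25% of counts) and were left out.

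Tests on these counts used edgeR 4.0.16 under R 4.3.3 (TMM, filterByExpr, quasi-likelihood F test, two-sided), adjusted by Benjamini-Hochberg over 14392 genes at 0.05. A first fit compared KO with both WT clones pooled, and another held 1 mean per line. SE is approximated as the size of the log2 fold change over the root of its F value. Other settings tried were DESeq2 1.42.0, edgeR with DESeq2 size factors, leaving the filter off, a block for experiment number, both experiment 1 libraries that stood apart left out, a contrast of line means, limma 3.58.1 voom with line as a random block, and each library left out. The fits were tested on simulated counts with known changes. In those for the pooled comparison the WT clones did not differ, so they do not cover the spread between clones there. Deviations of same-numbered libraries of the WT clones from their line means had correlations of 0.109 to 0.297. Differently numbered libraries of the clones had correlations of -0.2996 to 0.209. The highest of these was WT clone1 experiment 2 with WT clone2 experiment 4, above its correlation with WT clone2 experiment 2 (0.109). The fits reported did not pair libraries by number, and the block for experiment number was among the other settings. Pseudogene copies were sought by blastn 2.17.0, with 150 aligned bases and 95% identity as minimum. Named beside the 31 genes were, of the other p53 genes, up to 4 called per direction and comparison with the smallest adjusted p, plus Ube3a, Atm, Chek2, Gadd45a, Sesn1, Sesn2, Eda2r, Trp63 and Trp73. Some genes that this rule names are not reported here. The rule for the 31 genes uses no measured value, but the genes and lists were chosen with earlier results of these data known. The shares called may therefore not be independent of these data. Other steps used Python 3.11.15. Counting intervals and library depth (15.4 to 24.0 M counts) cover counting error only.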

Additional observations from a re-analysis of the deposited data

Results flagged for a closer look

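Within 7 of 93 groups of 4 libraries (31 genes in 3 lines), 1 library lay far from the other 3, with a gap past Dixon's 95% critical value for 4 samples, and chance alone gives about 1 in 20 such groups. In KO, Trp53 was at 299 CPM in experiment 1 against 219.9 to 231 CPM in the other experiments, Ckap2 was at 65.0 CPM in experiment 1 against 80.9 to 83.2 CPM, and Rchy1 was at 33.4 CPM in experiment 2 against 24.7 to 24.95 CPM. In WT clone1, Phlda3 was at 113 CPM in experiment 1 against 75.7 to 77.3 CPM, and Polk was at 21.4 CPM in experiment 1 against 27.4 to 28.6 CPM. Also in WT clone1, Fas was at 5.37 CPM in experiment 3 against 3.54 to 3.73 CPM, and Bcl2l1 was at 91.1 CPM in experiment 4 against 127 to 129.9 CPM. The experiment 1 libraries of KO and WT clone1, which hold 4 of these 7 values, are those that stood apart from the rest.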

How the results depend on the processing

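Of the 31 genes, 7 were called between KO and pooled WT. The count was 14 (8 higher, 6 lower) with a contrast of line means, where 33.8% of all genes were called, and 1, Dram1, with the line as a random block in voom, where 1.60% of all genes were called and 5 of the 31 had an unadjusted p under 0.05. In the fit as reported 18.8% of all genes were called. Leaving out 1 library gave 3 to 7, with 12.9 to 20.7% of all genes called. Of the other 44 p53 genes 6 were called there. The count was 12 with line means and 0 with the random block (5 with an unadjusted p under 0.05), and leaving out 1 library gave 4 to 9. For these genes between KO and WT clone2, 17 were called, and 11 to 18 with 1 library left out. The count was 11 without WT clone2 experiment 2 (32.2% of all genes called) or 4 (33.6%). In the labels, KO and WT libraries of an experiment share only a number. Deviations of same-numbered KO and WT libraries had correlations of 0.042 to 0.75, all positive. For differently numbered ones the correlations were -0.541 to 0.407. Not every library correlated best with its own number. With the replicate block, 4 of the 31 were called in the pooled comparison (17.3% of all genes), Perp, Polk and Apaf1 no longer passing. The block also called Trp53inp1 (edgeR adjusted p = 0.0319) and Polk (0.0437) for KO over WT clone1, Mdm4 (0.0113) and Fas (0.00941) for KO over WT clone2, and Plk3 between the clones. It gave 18, 21 and 23 calls of the 31 for KO over WT clone1, KO over WT clone2 and WT clone2 over WT clone1, and changed no other call of the 31. With the block, 44.0%, 46.6% and 50.4% of all genes were called in these comparisons. In the comparisons of lines, leaving out 1 library gave 12 to 17 calls for KO over WT clone1, 18 to 21 for KO over WT clone2 and 20 to 23 for WT clone2 over WT clone1. Of all genes, 30.4 to 38.2%, 32.2 to 39.8% and 36.9 to 46.8% were called in those fits. Over the 31 genes, 4 comparisons and all alternatives run, 2064 values kept their side of the threshold, 70 lost it, 36 gained it, and 0 that were called in either fit changed sign. Of those called in neither fit, 51 estimates changed sign. The causes were not tested. Promoter matches were 0 with no mismatch allowed and 1 (Ccng1) with 1 mismatch allowed. Counts limit Perp and Gdf15, which had at most 7 counts in any KO library.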

Other observations

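The nearest tested genes on both sides of Perp on chromosome 10 were also read, chosen after the Perp values were seen. Tnfaip3 (18874201 to 18891405), an inhibitor of NF-kappaB signalling, averaged 20.1 ± 3.31 CPM in KO, 23.9 ± 2.27 CPM in WT clone2 and 55.9 ± 13.1 CPM in WT clone1 (SD, n = 4 each). Its log2 fold change was -1.47 ± 0.16 for KO over WT clone1 (edgeR adjusted p = 1.3e-05) and -1.22 ± 0.16 for WT clone2 over WT clone1 (edgeR adjusted p = 4.4e-05). Il20ra, a cytokine receptor subunit, averaged 0.0580 ± 0.0471 CPM in KO, 0.129 ± 0.0945 CPM in WT clone2 and 1.37 ± 0.928 CPM in WT clone1. Ifngr1, which lies between Tnfaip3 and Il20ra, averaged 35.6 ± 3.35 CPM in KO, 38.7 ± 2.73 CPM in WT clone2 and 35.0 ± 5.35 CPM in WT clone1. On the other side, Reps1 averaged 86.3 ± 5.96 CPM in KO, 81.2 ± 3.64 CPM in WT clone2 and 68.9 ± 8.08 CPM in WT clone1, so that it was lowest in WT clone1, with log2 fold changes of 0.33 ± 0.09 for KO over WT clone1 (edgeR adjusted p = 0.0123) and 0.24 ± 0.09 for WT clone2 over WT clone1 (edgeR adjusted p = 0.048). Ccdc28a averaged 1.31 ± 0.266 CPM in KO, 1.74 ± 0.583 CPM in WT clone2 and 1.97 ± 0.196 CPM in WT clone1, with no call. Nearest to Perp there, Nhsl1 averaged 46.7 ± 3.93 CPM in KO, 18.2 ± 2.40 CPM in WT clone2 and 54.1 ± 6.41 CPM in WT clone1, with a log2 fold change of -1.57 ± 0.12 for WT clone2 over WT clone1 (edgeR adjusted p = 2.3e-07).

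The median coefficient of variation between the libraries of a line, over the 31 genes, was 15.8% in KO, 10.4% in WT clone2 and 13.8% in WT clone1.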
